A study of Rattus norvegicus with 6 samples.

Results

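Nppa and Nppb, the genes of the natriuretic peptides ANP and BNP, were followed in cultured neonatal rat ventricular cardiomyocytes, the muscle cells of the newborn rat ventricle. Their rows were taken by Ensembl ID, ENSRNOG00000008176 for Nppa and ENSRNOG00000008141 for Nppb, which are 2 of the 34052 features in the table. Cells given 10 µM erastin for 24 h (3 libraries) were set against control cells (3 libraries), which the name of the deposited table calls vehicle. The sample labels give no agent or time for them. No genotype, strain or transgene is given for either group, and nothing states whether the 3 libraries of a group are separate cultures or litters. The p-values below therefore set a group difference against a scatter between libraries that may be technical. Erastin keeps cells from taking up cystine through its exchanger with glutamate, and it serves to bring about ferroptosis, a cell death marked by iron-dependent lipid peroxidation. The design compares gene expression between cells given erastin and control cells. Whether these cells underwent ferroptosis was not tested here.

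ANP and BNP are hormones that heart muscle cells make as larger precursors and release into the blood. They act on a receptor guanylyl cyclase that makes cyclic GMP, which relaxes blood vessels and promotes the loss of salt and water by the kidney. Both genes are active in the embryonic and newborn ventricle. Nppa is then largely shut off there and kept on in the atria, and both genes come back on in stretched, overloaded or failing ventricles, where BNP in the blood is used as a clinical marker. The RefSeq annotation used here holds no Ensembl gene IDs, so the Ensembl IDs of the features could not be paired with gene symbols. The receptors, the processing enzymes, the transcription factors of both promoters and the markers of cardiomyocytes and other heart cells were therefore not analysed here.

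In the RefSeq annotation of assembly GRCr8, Nppb and Nppa are neighbours on chromosome 5, with 0 annotated genes between them. The stretches before both start sites are shown so that the promoters of these neighbouring genes, whose changes are compared below, can be read side by side. Each covers bases 250 to 24 before the start site, 227 bases on the plus strand, at chr5:163711934-163712160 for Nppa and at chr5:163699758-163699984 for Nppb (RefSeq, GRCr8). RefSeq also lets the Nppb gene begin further upstream than the start site used here. That earlier start lies inside the Nppb stretch shown, so by it the last bases of the stretch belong to the gene. The window and positions given for Nppb hold for the start site used only. Capitals mark matches to the motifs named after them.
Nppa: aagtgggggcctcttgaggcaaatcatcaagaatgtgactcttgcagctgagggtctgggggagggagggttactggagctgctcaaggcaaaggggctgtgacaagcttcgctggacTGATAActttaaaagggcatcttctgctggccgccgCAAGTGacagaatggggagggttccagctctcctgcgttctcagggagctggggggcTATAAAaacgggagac
Nppb: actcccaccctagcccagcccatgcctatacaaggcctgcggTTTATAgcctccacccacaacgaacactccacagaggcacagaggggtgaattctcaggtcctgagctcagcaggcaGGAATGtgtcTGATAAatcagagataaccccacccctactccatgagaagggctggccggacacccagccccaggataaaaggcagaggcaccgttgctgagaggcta
Both stretches held 1 match to TGATAA, 1 form of the site bound by GATA factors such as the cardiac GATA4. It began 132 bases before the start of Nppa and 121 bases before that of Nppb. Of 33469 RefSeq windows of the same length, 7.43% held this motif on either strand. Other forms of the GATA site were neither searched nor capitalised, such as the agataa that follows TGATAA in the Nppb stretch. The 1 match in each stretch is therefore not a count of all GATA sites. The Nppb stretch held 1 match to GGAATG, the M-CAT element read by TEAD factors, which began 131 bases before the start and was found in 11.0% of windows. It was not found in the Nppa stretch. The Nppa stretch held 1 match to CAAGTG, a core read by NKX2-5, beginning 96 bases before the start and found in 10.6% of windows, and the Nppb stretch held 0. TATAAA was found in both, and in 12.0% of windows. It lay on the plus strand 39 to 34 bases before the start of Nppa. In Nppb it lay on the minus strand, 208 to 203 bases before the start. Near matches to TATAAA were neither searched nor capitalised, such as the ggataaaagg toward the end of the Nppb stretch. Neither stretch matched TGANTCA (AP-1 sites, in 5.79% of windows), TGACNNNGC (the antioxidant response element read by NRF2, in 9.07%) or the CArG box of serum response factor (in 1.38%). The motifs were searched on both strands, and none of the matches overlapped. A match is a run of letters and not a shown binding site, and its absence from these windows says nothing of the factor.

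Nppb rose about 2-fold with erastin, while for Nppa no difference was detected in the values as deposited. The file header names no unit, and the values were taken as FPKM because they are whole reads times a step set by length and library total. FPKM are fragments per kilobase of counted length and per set number of reads of the library, so that levels can be compared between genes. The library totals were recovered from the steps between FPKM values and lay between 11126968 and 14914827 reads. The recovered counted lengths were 887 bases for Nppa and 672 bases for Nppb, and both genes were above the minimum of 1 FPKM in all 6 libraries.

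Nppb, which encodes the BNP precursor, was at 652, 693 and 676 FPKM in control replicates 1, 2 and 3 and at 1435, 1427 and 1282 FPKM in erastin replicates 1, 2 and 3. Every erastin library lay above every control library, and erastin replicate 3 was the lowest of its group. The control mean was 674 ± 20.9 FPKM and the erastin mean 1382 ± 86.2 FPKM (SD, n = 3), 2.05-fold higher. The log2 fold change on the log2(FPKM + 1) scale was 1.03 (SE 0.049, 95% interval 0.92 to 1.15, limma adjusted p = 8.87e-07 over 13576 features). In the same test 66.4% of all tested features changed and 42.3% rose, and the 3 and 3 libraries did not overlap, with erastin higher, in 45.7%. A rise by itself was therefore common in these libraries. By its size, the rise of Nppb exceeded the log2 fold change of 94.87% of tested features. In a culture measured as a whole, a higher level per cell cannot be told apart from a larger share of the cells that express the gene.

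Nppa, which encodes the ANP precursor, was the more abundant of the pair in every library. It was at 3723, 3579 and 3598 FPKM in replicates 1 to 3 of the control and at 3663, 3667 and 3460 FPKM in those of the erastin group. The groups overlapped, with the highest value in control replicate 1 and the lowest in erastin replicate 3. The control mean was 3633 ± 78.3 FPKM and the erastin mean 3597 ± 118 FPKM (SD, n = 3). The log2 fold change of Nppa was -0.015 (SE 0.034, 95% interval -0.095 to 0.065, limma adjusted p = 0.725). As deposited, the interval thus leaves room for changes of that size in either direction. The sign for Nppa depends on how the libraries are scaled. Centring each library on its median log ratio, which lowers the median log2 fold change of all tested features by 0.13, gave -0.14 for Nppa (limma adjusted p = 0.0059), and quantile normalization gave 0.81 (limma adjusted p = 9.68e-08). Nppb stayed higher in both, at 0.90 (limma adjusted p = 2.16e-06) and 0.95 (limma adjusted p = 1.16e-06).

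**Figure D1:**
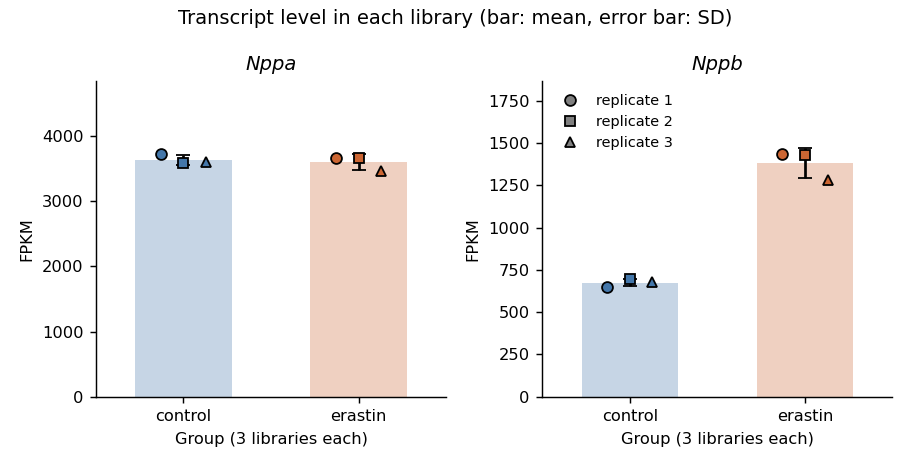
FPKM of Nppa (left) and Nppb (right) in each control and erastin library, with the vertical axes starting at 0 and scaled separately. Bars are means, error bars SD (n = 3) and symbols the replicates. The Nppa values overlap between 3460 and 3723 FPKM, and the Nppb values separate, from 652 to 693 FPKM in control and from 1282 to 1435 FPKM in erastin libraries.

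The depth behind these values was high. Nppa rested on 34153 to 47344 reads per library. Nppb rested on 5040, 6949 and 5230 reads in replicates 1 to 3 of the control and on 10754, 11526 and 9587 reads in those of the erastin group. Counting error alone would give a coefficient of variation of 0.496% for Nppa and 1.32% for Nppb in control libraries, against observed values of 2.15% and 3.11%. In erastin libraries counting error would give 0.524% and 0.970%, against 3.28% and 6.24%. The spread between libraries was therefore larger than counting error for both genes in both groups. The median coefficient of variation of the 120 features with a mean of at least 500 FPKM was 2.86% in control and 2.90% in erastin libraries, so Nppb in erastin libraries varied more than the typical abundant feature. That spread came mainly from erastin replicate 3, and without it the log2 fold change of Nppb was 1.09 (limma adjusted p = 9.54e-07).

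The balance between both transcripts shifted toward Nppb. The ratio of Nppb to Nppa FPKM was 0.175, 0.194 and 0.188 in replicates 1 to 3 without erastin and 0.392, 0.389 and 0.371 in replicates 1 to 3 with it. The groups did not overlap, and the gap between them was many times the spread within either. The mean ratio was 0.186 ± 0.0096 without and 0.384 ± 0.0116 with erastin (SD, n = 3). Put the other way, there were 5.16 to 5.71 FPKM of Nppa for each FPKM of Nppb in control libraries and 2.55 to 2.70 in erastin libraries. The log2 fold change of Nppb exceeded that of Nppa by 1.05 (exact permutation test over 3 and 3 libraries, two-sided, p = 0.1), and this design allows no smaller p. A scaling factor common to a library cancels in the ratio, and the difference was 1.05 after centring as well. Quantile normalization does not act as a common factor, and it left a difference of 0.14 (exact permutation p = 0.1). The ratio shows unequal change of both transcripts and not that Nppa stayed constant.

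**Figure D2:**
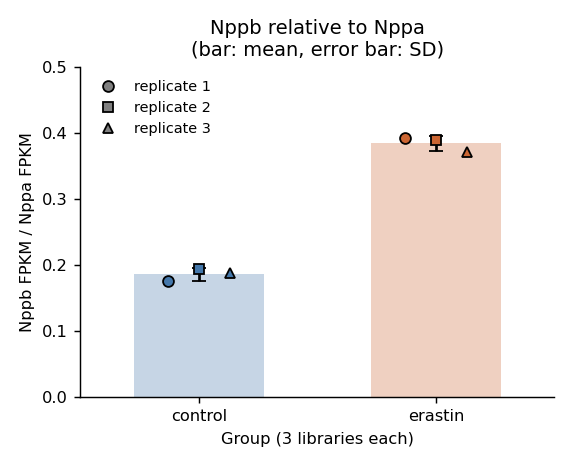
Ratio of Nppb FPKM to Nppa FPKM in each library, with bars for the means, error bars for the SD (n = 3) and symbols for the replicates, on a vertical axis that starts at 0. Control libraries lie between 0.175 and 0.194 and erastin libraries between 0.371 and 0.392.

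Of the summed FPKM of both genes, Nppb made up 15.7 ± 0.683% without and 27.7 ± 0.610% with erastin (exact permutation p = 0.1, mean ± SD of 3 libraries). The sum was 4374, 4272 and 4274 FPKM in the 3 control libraries, by replicate number, and 5098, 5094 and 4743 FPKM in the 3 with erastin. It was thus 1.16-fold higher with erastin, without overlap of the groups (exact permutation p = 0.1). As a share of all reads in a library, Nppa took 0.322 ± 0.0069% without and 0.319 ± 0.0105% with erastin, and Nppb 0.0453 ± 0.0014% and 0.0928 ± 0.0058% (SD, n = 3).

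Both genes climbed in the order of abundance within the libraries. Nppa was the 11th feature by FPKM in each of the 3 control libraries and the 5th in each of the 3 erastin libraries. Nppb was at rank 78, 60 and 64 in the 3 control libraries, by replicate number, and at rank 26, 23 and 26 in the 3 with erastin. For Nppa the climb came with nearly the same FPKM. All 10 features with a higher control mean than Nppa fell with erastin at a limma adjusted p under 0.05, as did 24.1% of all tested features. Of these 10, 8 ended below Nppa in the erastin means and 2 stayed above it, and 2 features from lower ranks passed it. The rank of Nppa therefore moved with the levels of other features, and a higher rank is not a higher level.

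**Figure D3:**
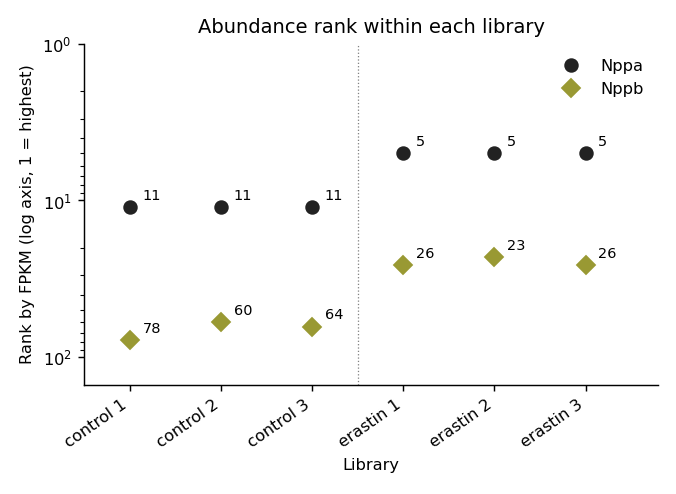
Rank of Nppa (circles) and Nppb (diamonds) by FPKM within each library, on a log axis with rank 1 at the top. Nppa goes from rank 11 to rank 5, and Nppb from ranks 60 to 78 in control to ranks 23 to 26 in erastin libraries.

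Nppb climbed by its own level as well as by the fall of others. Of the 68 features above it by control mean, 47 fell and 16 rose by limma's adjusted p, and 5 were not called. None of the 68 had a higher log2 fold change than Nppb, and 50 of them ended below it in the erastin means, while 6 features from lower ranks passed it. Among the 100 features most abundant in control libraries, 33 rose and 60 fell, with a median log2 fold change of -0.32, against 0.13 over all tested features. Of these 100, 2 rose at least 2-fold on the log2(FPKM + 1) scale, Nppb being 1 of them, and 26 fell at least as far. Of all 13576 tested features, 5744 rose and 3267 fell, and 699 rose and 645 fell at least 2-fold. In added FPKM the gain of Nppb, 708 FPKM, was the 10th largest of all features.

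**Figure D4:**
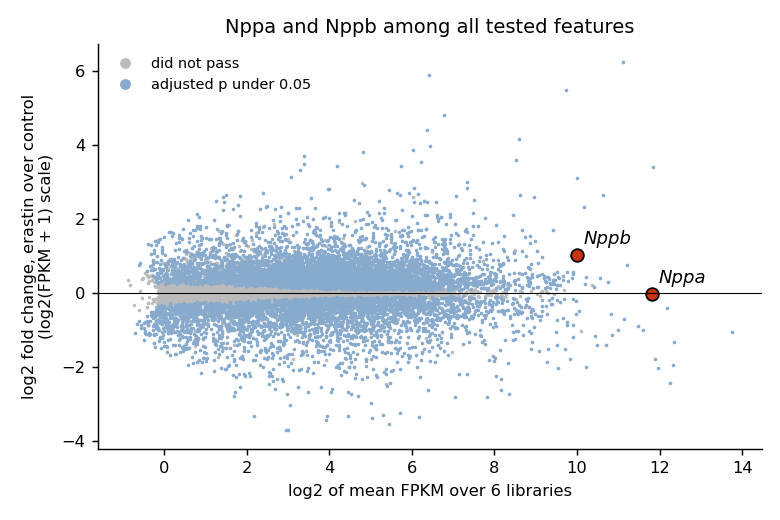
Log2 fold change of erastin over control on the log2(FPKM + 1) scale against the log2 of the mean FPKM over 6 libraries for 13576 tested features, with blue points past an adjusted p of 0.05 in limma. Nppa, at -0.015, and Nppb, at 1.03, are marked in red toward the abundant end, where Nppb is among few features with a rise of this size.

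Other features followed each gene more closely than the genes followed each other. Profiles over the 6 libraries were compared as log2(FPKM + 1) minus the mean of each feature, by the root mean square difference, among 6787 other features with a mean of at least 12.5 FPKM. Closest to Nppb were ENSRNOG00000003042, at a difference of 0.037, and ENSRNOG00000028255, at 0.041. ENSRNOG00000003042 was at 23.0 ± 0.646 FPKM in control and 47.1 ± 1.26 FPKM in erastin libraries, and ENSRNOG00000028255 at 18.7 ± 0.182 and 38.5 ± 1.14 FPKM (SD, n = 3). Both were thus far less abundant than Nppb, with a like fold. In all, 137 features lay within 0.1 of Nppb and 1527 within 0.1 of Nppa. Nppa and Nppb differed from each other by 0.53, which placed Nppa at position 4371 in the order from Nppb, and Nppb at position 6075 in the order from Nppa. These likenesses describe 6 libraries that share 1 contrast and carry no test.

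Within groups the genes did not always deviate in the same direction. Erastin replicate 3 was low for both, at -0.083 for Nppa and -0.16 for Nppb on the log2 scale against the mean of the other two erastin libraries. Control replicate 1 was the highest control library for Nppa, at 0.053, and the lowest for Nppb, at -0.072. With 3 libraries in a group these deviations are values only.

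Under the 16 alternative settings tried, Nppb kept an adjusted p under 0.05 in limma in all 16, with log2 fold changes from 0.90 to 1.09. For Nppa the adjusted p was under 0.05 in 3 of 16, in 2 of them with erastin lower and in 1 with erastin higher.

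**Figure D5:**
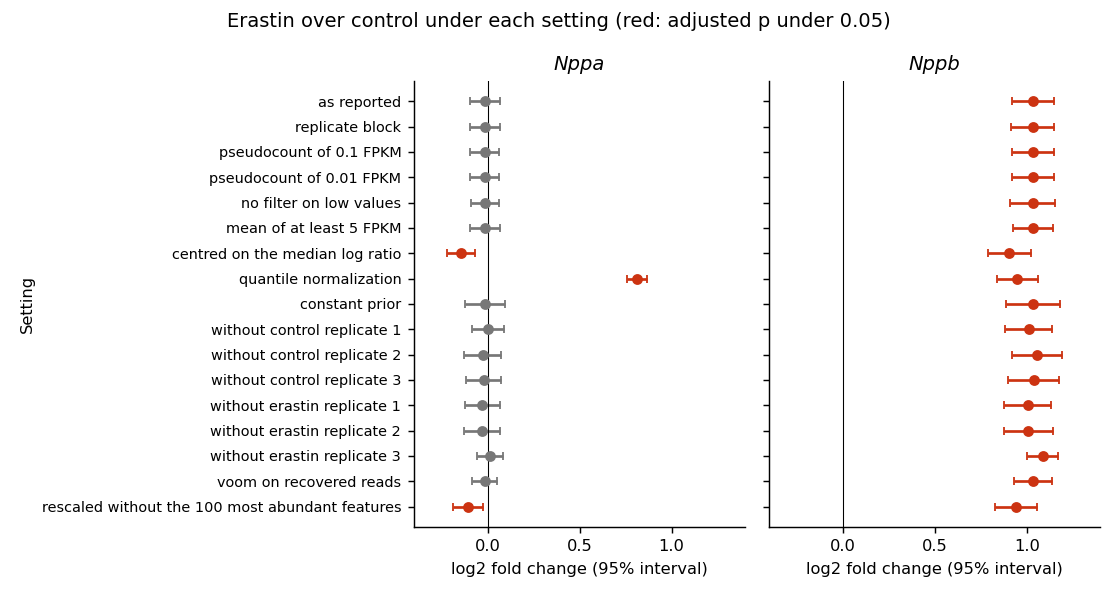
Log2 fold change of erastin over control with its 95% interval for Nppa (left) and Nppb (right) under each setting, in red where the limma adjusted p is under 0.05. The Nppb values lie from 0.90 to 1.09, and the Nppa values lie near 0 except with centring (-0.14), rescaling without the 100 most abundant features (-0.11) and quantile normalization (0.81).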

How the data were processed

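Poly(A) RNA of 6 libraries (3 control, 3 erastin, grouped by title) was sequenced as paired ends with strand marking, per the labels' protocols. The authors deposited 1 table, whose header names no unit. Its values were taken as FPKM, since the deposited FPKM equal whole reads scaled by a length and a library total. HISAT2 2.0.5 and DESeq2, without a version, are named in the submitters' processing notes. For the counter, build and annotation the sources used here give nothing. Whole reads, library totals and counted lengths were recovered from the FPKM steps with Python 3.11.15 and numpy 2.4.6. Replicates differed by more than sampling noise (mean chi-square per feature 2.96 to 5.41), so none was treated as a copy. Values were tested as log2(FPKM + 1) with limma 3.58.1 (R 4.3.3; prior trended and robust). P-values were adjusted by Benjamini-Hochberg over the 13576 features that reached 1 FPKM in 3 or more libraries. The Nppb to Nppa difference was tested with an exact permutation test over libraries. The members, gene lists and alternatives were chosen with earlier results of these data known. The rule for named features took both members, the fixed lists, and the features of most similar profile, of which 2 are printed. The lists need gene symbols, which were not matched, so they were not run.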

Additional observations from a re-analysis of the deposited data

How the results depend on the processing

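Nppb kept its direction and a limma adjusted p under 0.05 in all 16 alternatives. The difference of both genes kept its direction in all 16, but went from 1.05 to 0.14 with quantile normalization. The exact test of the difference cannot pass 0.05 in this design, so its side of the threshold was fixed in advance. For Nppa the log2 fold change of -0.015 became -0.14 with centring (limma adjusted p = 0.0059), -0.11 when libraries were rescaled without their 100 most abundant features (limma adjusted p = 0.031) and 0.81 with quantile normalization (limma adjusted p = 9.68e-08). The first 2 change the library scale alone. Quantile normalization sets values by rank, and Nppa went from rank 11 to rank 5. Over the other 13 alternatives the adjusted p for Nppa was 0.566 to 0.95. Leaving out 1 library gave -0.029 to 0.013 for Nppa, with a positive sign without control replicate 1 (0.0029) or erastin replicate 3 (0.013). It gave 1.00 to 1.09 for Nppb and 1.01 to 1.08 for the difference.

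The number of changed features was 9011 of 13576 tested, with 63.7% higher. In the alternatives it went from 7230 of 9648 (mean of at least 5 FPKM) to 9308 of 22354 (no filter on low values). The range thus covers unlike numbers of tested features. Of the changed features, 49.8% were higher after centring and 51.8% after quantile normalization. Libraries of the same number are not paired by the labels, and their deviations correlated at -0.002, 0.017 and -0.04. With the replicate block 8768 features changed, Nppa was at -0.015 (limma adjusted p = 0.715), Nppb at 1.03 (limma adjusted p = 2.09e-05) and the difference at 1.05 (exact p = 0.25, the smallest possible with 3 pairs). Limma's voom method on the recovered reads changed 9178 features and gave -0.014 for Nppa (adjusted p = 0.694) and 1.03 for Nppb (adjusted p = 1.88e-08). An edgeR fit was planned for a deposited count table. No edgeR or DESeq2 fit was run, and the alternatives for the gene lists were not run.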
